A study of Mus musculus with 12 samples.

Results

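The genes described here are 8 transcription factors of the mouse trophoblast lineage (Tead4, Cdx2, Gata3, Gata2, Tfap2c, Tfap2a, Eomes and Elf5) and the early keratins Krt8 and Krt18. They were chosen by symbol, with earlier results of these data known, and all 10 were found among the 24421 gene symbols counted. RNA-seq had been run on 12 libraries of mouse embryonic stem cells (ESCs) of the androgenetic haploid kind, whose 1 set of chromosomes comes from the father, on a C57BL/6 background. The EG1 parental line gave 3 libraries of an Etl4 knockout (EG1 KO) and 3 of its wild type (EG1 WT). The OdG parental line gave 2 libraries of a knockout called line 2 here, 2 of a knockout called line 1, and 2 of its wild type (OdG WT). How Etl4 was disrupted, and whether a knockout line is a single clone, is not given in the sources used here. Whether replicates of a group are separate cultures is not stated, and the spread that the p-values rest on may be technical. The choice of genes already named the near absence of Tfap2c from OdG WT, so the values of Tfap2c that involve OdG WT are a description with no test.

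Trophoblast is the first lineage that the mouse embryo sets apart. In the outer cells of the morula, YAP enters the nucleus and works with the DNA-binding protein Tead4 to switch on Cdx2 and Gata3, which oppose the pluripotency genes kept on in the inner cells. Eomes, Elf5 and Tfap2c then hold trophoblast stem cells in their state, and the first epithelium of the embryo builds its filaments from Krt8 and Krt18. ESCs come from the inner cells and normally keep most of this programme low, while Cdx2, Eomes and Gata2 also act later, in the primitive streak, posterior body or blood.

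The promoters of 4 of these genes are shown because the results below turn on them. Cdx2 had the largest tested difference of the list between the parental lines, Krt8 and Krt18 lie side by side on chromosome 15 and moved together between the OdG lines, and Gata3 was the member called in EG1 KO cells. The sequences are from RefSeq on GRCm38.p6 and run from 250 bases before the start site to 50 after it. They lie at chr5:147307200-147307499 on the minus strand (Cdx2), chr2:9878551-9878850 on the minus strand (Gata3), chr15:102004293-102004592 on the minus strand (Krt8) and chr15:102027966-102028265 on the plus strand (Krt18). Capitals mark matches, on either strand, to the AP-2 letters GCCNNNGGC, the GATA letters AGATAA, the TEAD letters GGAATG or the TATA letters TATAAA.
Cdx2: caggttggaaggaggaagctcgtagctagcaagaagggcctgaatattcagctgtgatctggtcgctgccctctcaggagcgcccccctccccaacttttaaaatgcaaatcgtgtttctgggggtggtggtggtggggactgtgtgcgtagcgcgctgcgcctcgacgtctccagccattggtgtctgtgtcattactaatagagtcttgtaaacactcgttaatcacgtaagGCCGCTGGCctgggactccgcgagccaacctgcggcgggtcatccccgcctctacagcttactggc
Gata3: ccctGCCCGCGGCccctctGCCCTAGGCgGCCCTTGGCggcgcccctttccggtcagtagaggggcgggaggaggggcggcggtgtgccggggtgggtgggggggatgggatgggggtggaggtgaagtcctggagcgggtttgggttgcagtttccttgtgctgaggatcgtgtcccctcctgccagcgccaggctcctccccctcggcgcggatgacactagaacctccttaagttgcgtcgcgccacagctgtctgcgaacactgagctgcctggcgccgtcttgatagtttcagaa
Krt8: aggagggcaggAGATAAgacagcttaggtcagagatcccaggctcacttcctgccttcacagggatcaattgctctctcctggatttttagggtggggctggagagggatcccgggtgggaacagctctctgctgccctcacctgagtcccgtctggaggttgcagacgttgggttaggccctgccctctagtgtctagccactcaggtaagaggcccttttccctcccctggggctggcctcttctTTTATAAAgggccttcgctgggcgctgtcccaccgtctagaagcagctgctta
Krt18: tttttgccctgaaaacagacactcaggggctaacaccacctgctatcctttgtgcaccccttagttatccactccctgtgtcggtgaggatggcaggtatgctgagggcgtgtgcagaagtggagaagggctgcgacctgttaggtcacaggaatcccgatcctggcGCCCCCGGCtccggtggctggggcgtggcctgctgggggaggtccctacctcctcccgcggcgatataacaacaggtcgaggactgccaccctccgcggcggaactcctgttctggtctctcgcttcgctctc
Cdx2 and Krt18 each held 1 AP-2 match, beginning at positions -16 and -83 from the start site, and Gata3 held 3, beginning at -246, -231 and -221. Krt8 held 1 GATA match and, next to its start, a TATA match on each strand that overlap in one run. Of 32851 promoters of this length, 16.6% held the AP-2 letters, 11.2% the GATA letters, 14.7% the TEAD letters and 13.6% the TATA letters. Promoters were found for 8 of the 10 genes, in 11 entries, and Tfap2c and Tead4 had none. These matches are letters in a window and say nothing of binding.

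The libraries held between 16110028 and 19706599 counts. All 12 ESC markers were detected in every group, and they summed to 8850 to 9070 CPM (counts scaled to a common total over all 12 libraries) in EG1 KO, 8940 to 9090 in EG1 WT, 6940 to 6950 in line 2, 7390 to 7470 in line 1 and 6400 to 6530 in OdG WT. Of 15 genes of differentiated trophoblast and placenta, 9 were at 0 in each EG1 group, 5 in line 2, 8 in line 1 and 7 in OdG WT, and Tpbpa, Prl3d1, Prl2c2, Synb and Ctsq were at 0 in all of them. Etl4 RNA itself remained in the knockouts, at 133 ± 1.46 CPM in EG1 KO against 265 ± 2.77 in EG1 WT, and at 111 ± 3.08 in line 2 and 98.2 ± 2.91 in line 1 against 207 ± 3.42 in OdG WT (SD, n = 3 per EG1 group and 2 per OdG group, as for every mean below). In these bulk samples, fewer cells expressing a gene and less RNA per cell cannot be told apart.

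Between the parental lines, Cdx2, Krt8, Krt18, Tfap2a and Gata2 were far lower in EG1 WT than in OdG WT, whereas Tfap2c was high in EG1 WT and nearly absent from OdG WT. Of the 8 members tested between EG1 WT and OdG WT, 2 were higher and 6 lower (edgeR, adjusted p under 0.05). Calls were common in that comparison, at 70.3% of 14977 genes (35.0% higher and 35.4% lower), so the number of calls alone is no result about these genes. By size, 5 of the 8 were called with a log2 change of at least 1, against 20.8% of all genes, and their median log2 change was -2.93, against -0.00 for all genes. The members were chosen with earlier results of these data known, so these sizes describe the list and do not test it. EG1 and OdG libraries came in separate tables, so parental line and table cannot be told apart.

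Within OdG, both knockout lines shared their WT libraries and went opposite ways at the keratins. In line 2, 1 of the 8 tested members was higher than in OdG WT, 4 were lower and 3 were not called, where 59.9% of 14413 genes were called (30.0% higher, 29.8% lower). In line 1, 4 were higher, 3 lower and 1 was not called, where 52.8% of genes were called (26.8% higher, 26.1% lower). Line 2 against line 1 gave 2 members higher, 6 lower and 1 not called of 9 tested, with 37.8% of genes called (18.6% higher, 19.2% lower). With both lines averaged against OdG WT, 2 members were higher, 4 lower and 2 not called, with 59.9% of genes called (29.4% higher, 30.5% lower), and 2 members stayed called when the 4 libraries were treated as a single group.

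Few genes of any kind were called in the EG1 knockout. Of 9 members tested, Gata3 was higher in EG1 KO than in EG1 WT and the other 8 were not called, where 7.66% of 14016 genes were called (3.60% higher, 4.06% lower). The genes called numbered 1074, and 638 to 672 when any 1 of the EG1 WT libraries was left out. Elf5 was too low to be tested in any comparison.

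**Figure D1:**
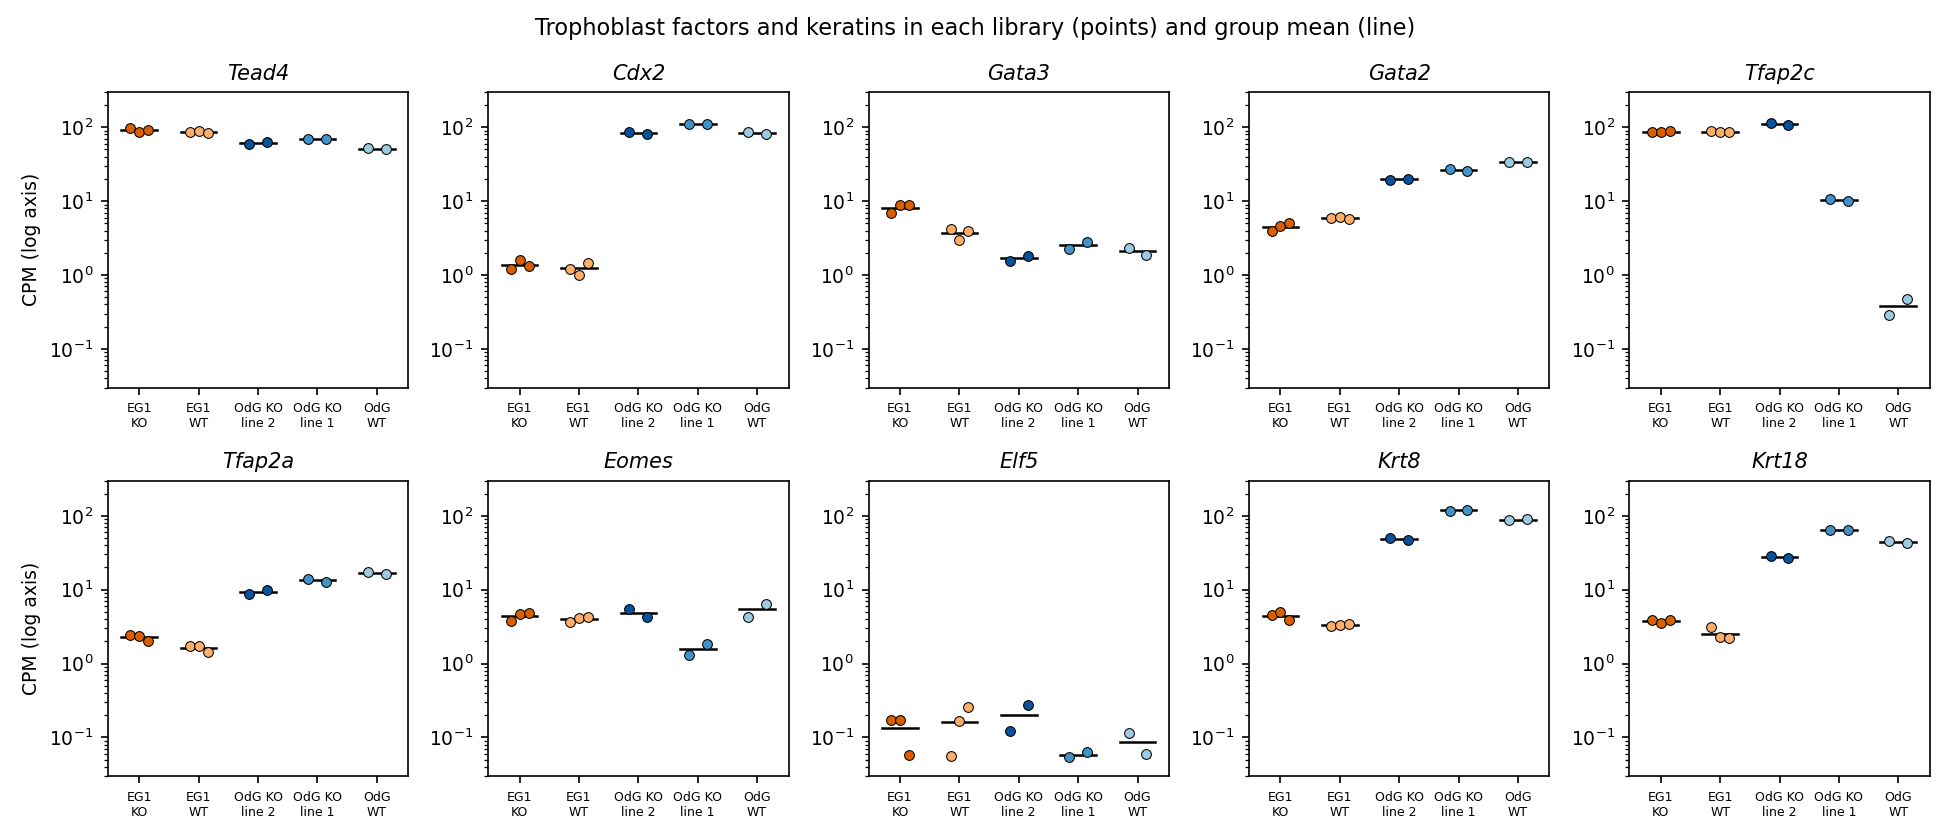
Level of each of the 10 genes in CPM (log axis) in every library (points) with the group mean (line), for EG1 KO, EG1 WT, OdG KO line 2, OdG KO line 1 and OdG WT. Cdx2, Krt8, Krt18, Gata2 and Tfap2a sit lower in the EG1 libraries than in all OdG libraries, and Tfap2c averages 0.38 CPM in OdG WT.

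Per kilobase of exon, the order of the genes differed between the parental lines. Tead4 led in EG1 KO (25.4 ± 1.86 CPM per kb) and in EG1 WT (24.0 ± 1.01), with Tfap2c just below it at 23.5 ± 0.359 and 23.8 ± 0.737, so that the libraries of these genes overlapped. No other member passed 2.61 CPM per kb in either EG1 group. In line 2 the order was Cdx2 (37.2 ± 2.1 CPM per kb), Tfap2c (30.3 ± 0.94), Krt8 (24.5 ± 0.995) and Krt18 (19.4 ± 0.839). In line 1 it was Krt8 (60.3 ± 0.478), Cdx2 (48.8 ± 0.646) and Krt18 (44.4 ± 0.0431), and in OdG WT it was Krt8 (45.2 ± 0.931), Cdx2 (36.7 ± 1.86) and Krt18 (30.7 ± 0.802). Per kb, all 3 OdG groups held more Cdx2, Krt8 and Krt18 than Tead4, and both EG1 groups held less.

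Tead4, the TEAD-family partner of YAP that acts at the top of the trophectoderm programme (chromosome 6, 128224288 to 128300823, mm10), was robustly expressed in every library. It had 98.5, 85.2 and 91.0 CPM in EG1 KO and 85.7, 90.1 and 82.8 CPM in EG1 WT, against 59.4 and 62.4 in line 2, 70.3 and 69.5 in line 1, and 51.8 and 50.3 in OdG WT. The EG1 groups overlapped each other and lay above every OdG library, and the 3 OdG groups did not overlap. Tead4 was higher in EG1 WT than in OdG WT by 0.76 ± 0.0568 on the log2 scale (adjusted p = 3.9e-13). It also rose in line 2 (log2 change 0.27 ± 0.0538, adjusted p = 0.00038) and in line 1 (0.46 ± 0.0529, adjusted p = 1.2e-06) over OdG WT. In EG1 KO its change over EG1 WT was 0.09 ± 0.049 with an adjusted p of 0.32.

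The Hippo list around Tead4 held 19 genes: YAP and its partners, the kinases that keep it out of the nucleus, and target genes. Between EG1 WT and OdG WT, 4 were higher and 12 lower of 19 tested (all genes: 35.0% higher, 35.4% lower), with a median log2 change of -0.41. The lower ones included 2 classic YAP targets, Ctgf (29.1 ± 1.15 CPM in EG1 WT against 75.0 ± 1.36 in OdG WT, log2 change -1.37) and Cyr61 (26.4 ± 2.55 against 64.0 ± 1.62, log2 change -1.27). Amotl2, which tethers YAP outside the nucleus, was at 121 ± 4.18 CPM in EG1 WT against 219 ± 0.602 in OdG WT, and Tead1, a paralog of Tead4, at 359 ± 12.2 against 499 ± 9.91. Tead4 thus went the opposite way to Tead1 between the parental lines. The paralog Tead2 was higher in EG1 WT, as Tead4 was (log2 change 0.39, adjusted p = 3.9e-09), and Tead3 was not called (-0.10, adjusted p = 0.61).

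In EG1 KO, 3 of 18 tested Hippo genes rose and none fell (all genes: 3.60% higher, 4.06% lower). They were Cyr61 (40.0 ± 0.223 CPM in EG1 KO against 26.4 ± 2.55 in EG1 WT, log2 change 0.59, adjusted p = 8.1e-08), Amotl2 (162 ± 2.94 against 121 ± 4.18, log2 change 0.42, adjusted p = 2.5e-09) and Ctgf (36.7 ± 1.98 against 29.1 ± 1.15, log2 change 0.33, adjusted p = 0.0005). In the OdG knockouts, Cyr61 had a log2 change of -0.00 in either line, and Amotl2 fell by 0.65 in line 2 and by 0.30 in line 1. Ctgf rose in line 2 (log2 change 0.16, adjusted p = 0.0058), as in EG1 KO, and had a log2 change of -0.11 in line 1 (adjusted p = 0.059). In line 2, 6 of 19 Hippo genes rose and 4 fell (all genes: 30.0% higher, 29.8% lower). In line 1, 6 rose and 2 fell (all genes: 26.8% higher, 26.1% lower).

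Cdx2, the caudal homeobox factor required for the trophectoderm and later for the posterior body (chromosome 5, 147300805 to 147307270), was abundant in OdG cells and nearly silent in EG1 cells. It had 1.21, 1.61 and 1.34 CPM in EG1 KO and 1.19, 1.02 and 1.48 CPM in EG1 WT, against 87.5 and 80.8 in line 2, 109 and 111 in line 1, and 86.0 and 80.1 in OdG WT. Every OdG library was above every EG1 library, line 1 stood above line 2 and OdG WT, and line 2 overlapped OdG WT. Cdx2 was 66.8-fold lower in EG1 WT than in OdG WT (log2 change -6.06 ± 0.102, adjusted p = 1.2e-29), a size that 0.474% of tested genes reached in either direction. Line 1 was higher than OdG WT by 0.41 ± 0.0485 (adjusted p = 1.5e-06), and line 2 was lower than line 1 (log2 change -0.39 ± 0.0484, adjusted p = 6.5e-06). The change was 0.03 ± 0.0499 in line 2 over OdG WT (adjusted p = 0.67) and 0.16 ± 0.283 in EG1 KO over EG1 WT (adjusted p = 0.8).

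Some relatives of Cdx2 and some primitive streak genes were lower in EG1 WT along with Cdx2, and others were higher. Cdx1, a paralog active in the posterior embryo, had 15.7 ± 0.951 CPM in EG1 WT against 205 ± 1.6 in OdG WT (log2 change -3.71), and T, the T-box factor of the streak, had 4.16 ± 0.385 against 70.8 ± 6.01 (log2 change -4.09). Of 8 T-box and caudal relatives, 4 were lower in EG1 WT, 1 was higher (Mga, log2 change 0.41) and 3 were not called. Among all genes, 35.4% were lower there and 35.0% higher. The 10 primitive streak markers summed to 13.6 to 15.8 CPM in EG1 KO, 16.3 to 17.8 in EG1 WT, 71.7 to 76.3 in line 2, 84.9 to 86.1 in line 1 and 83.9 to 92.8 in OdG WT, with Mesp1 at 0 in OdG WT. Of the 7 that could be tested between EG1 WT and OdG WT, 3 were lower, 2 were higher and 2 were not called, beside the same shares of all genes. The higher ones were Gsc (log2 change 1.52, adjusted p = 7.7e-08) and Mixl1 (0.84, adjusted p = 0.045). Their part in the Cdx2 difference was not tested. Cdx1 was not called in either OdG knockout line (log2 change 0.06 in line 2, adjusted p = 0.17, and -0.01 in line 1, adjusted p = 0.77).

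**Figure D2:**
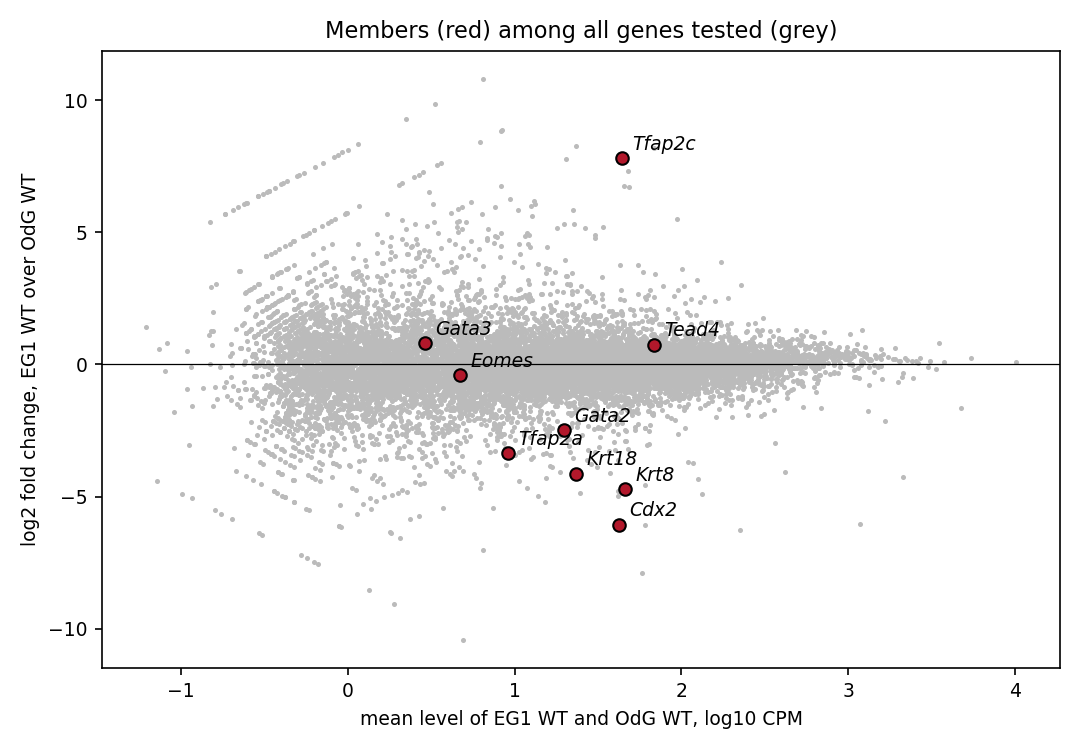
Log2 fold change of EG1 WT over OdG WT (vertical axis) against the mean level of both groups (log10 CPM, horizontal axis) for all genes tested (grey points), with the members in red. Cdx2 (-6.06), Krt8 (-4.72), Krt18 (-4.13), Tfap2a (-3.35) and Gata2 (-2.50) lie well below 0, and Tfap2c, shown as a description, lies at 7.82.

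Gata3, a zinc-finger factor that works beside Cdx2 in the trophectoderm (chromosome 2, 9857078 to 9890034), was low in all groups and was the member that rose in EG1 KO. It had 7.01, 8.83 and 8.76 CPM in EG1 KO against 4.20, 2.99 and 3.92 in EG1 WT. In OdG it had 1.57 and 1.83 CPM in line 2, 2.26 and 2.84 in line 1, and 2.31 and 1.89 in OdG WT. Every EG1 KO library was above every EG1 WT library, and every EG1 WT library above every OdG library. Gata3 was 2.21-fold higher in EG1 KO (log2 change 1.14 ± 0.148, adjusted p = 1.5e-06), a change that 0.35% of tested genes matched in size. EG1 WT was above OdG WT by 0.82 ± 0.216 (adjusted p = 0.0013).

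The effect on Gata3 differed between the EG1 and OdG knockouts. The mean OdG KO effect was -0.01 ± 0.224 and the EG1 KO effect 1.14 ± 0.148, and their difference was -1.16 ± 0.28 (adjusted p = 0.0013). Within OdG, Gata3 was not called in line 2 (-0.29 ± 0.271) or line 1 (0.27 ± 0.251) against OdG WT, nor between the lines (-0.57 ± 0.261, adjusted p = 0.1). The gene 4930412O13Rik lies across Gata3 on the opposite strand, and 9230102O04Rik overlaps it on the same strand. They held 4 to 6 and 0 to 1 counts per library in EG1 KO, and 0 to 5 and 0 to 1 in EG1 WT. The library kit does not mark strand, so reads of Gata3 and of its antisense partner cannot be told apart.

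Gata2, a GATA factor of trophoblast giant cells and of blood stem cells (chromosome 6, 88193891 to 88207032), was lower in EG1 than in OdG, unlike Gata3. It had 3.91, 4.64 and 5.02 CPM in EG1 KO and 5.96, 6.10 and 5.80 in EG1 WT, against 19.6 and 19.7 in line 2, 27.1 and 25.5 in line 1, and 33.4 and 34.0 in OdG WT. No group overlapped another. Gata2 was 5.66-fold lower in EG1 WT than in OdG WT (log2 change -2.50 ± 0.0924, adjusted p = 7.4e-21), and fell in line 2 (-0.77 ± 0.0785, adjusted p = 2e-07) and in line 1 (-0.35 ± 0.0752, adjusted p = 0.00085). In EG1 KO all 3 libraries were below all 3 of EG1 WT (-0.40 ± 0.144), with an adjusted p of 0.09 that became 0.04 in a fit over all 12 libraries and ran from 0.04 to 0.31 over the alternatives tried. The OdG and EG1 knockout effects on Gata2 were not called different (-0.17 ± 0.142, adjusted p = 0.37).

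Of the other GATA genes, Gata4, a primitive endoderm factor, had means between 1.59 and 2.74 CPM, and Gata6, its partner in that lineage, had 0.27 ± 0.0885 CPM in EG1 KO and 0.587 ± 0.141 in EG1 WT, against 0.981 ± 0.0235 in line 2, 0.859 ± 0.301 in line 1 and 3.65 ± 0.512 in OdG WT. Gata6 fell by 1.88 on the log2 scale in line 2, had a log2 change of -2.10 in line 1, and was lower in EG1 WT than in OdG WT by a log2 change of -2.63. The whole GATA list of 4 gave 1 higher and 1 lower of 3 tested in line 2 (all genes: 30.0% higher, 29.8% lower). In line 1 it gave 0 higher and 1 lower (all genes: 26.8% higher, 26.1% lower).

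Tfap2c, which encodes AP-2 gamma, a factor of trophoblast stem cells and of primordial germ cells (chromosome 2, 172549593 to 172558622), was the most divergent gene of the list within OdG. It had 85.6, 85.5 and 87.8 CPM in EG1 KO and 90.3, 87.1 and 85.0 CPM in EG1 WT, against 114 and 109 in line 2, 10.8 and 9.90 in line 1, and 0.288 and 0.472 in OdG WT. In counts, OdG WT held 5 and 8 reads, line 1 held 200 and 157, and line 2 held 1888 and 1965. The 3 OdG groups were fully apart, and the EG1 groups lay just below line 2 and overlapped each other.

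Described as ratios of summed counts scaled to library totals, Tfap2c was 290 times its OdG WT level in line 2 (exact 95% counting interval 169 to 545) and 26.3 times in line 1 (15.2 to 49.9). EG1 WT stood at 224 times the OdG WT level (131 to 422). The intervals cover counting error alone and rest on 13 reads in OdG WT. Leaving out either WT library gave 233 to 380 for line 2, 21.2 to 34.5 for line 1 and 181 to 294 for EG1 WT. Line 2 against line 1, which does not involve OdG WT, was tested: Tfap2c was 10.8-fold higher (log2 change 3.43 ± 0.0762, adjusted p = 1e-15), a change that 0.236% of genes matched. In EG1 KO against EG1 WT the log2 change was -0.02 ± 0.0436 (adjusted p = 0.85).

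The genes beside Tfap2c were compared with it in the same groups. Bmp7, the next gene downstream and a BMP ligand, was at 18.5 ± 2.14 CPM in EG1 KO and 23.0 ± 1.04 in EG1 WT, against 10.4 ± 0.00212 in line 2, 21.8 ± 2.0 in line 1 and 46.4 ± 1.86 in OdG WT. Within OdG, Bmp7 thus fell where Tfap2c was higher, by 2.15 in line 2 (adjusted p = 1.9e-12) and by 1.08 in line 1 (adjusted p = 5.3e-09) on the log2 scale. Bmp7 also fell in EG1 KO against EG1 WT (log2 change -0.32 ± 0.0809, adjusted p = 0.011), where Tfap2c was not called. A link between these genes was not tested. Rae1, an mRNA export factor 3 genes downstream, had group means between 109 and 119 CPM. Cass4, Gcnt7 and Fam209 upstream and Spo11 downstream held between 0 and 24 counts per library. At these low counts, Fam209 was lower in line 2 (log2 change -1.75 ± 0.593, adjusted p = 0.017) and in EG1 WT (-2.39 ± 0.62, adjusted p = 0.0011) than in OdG WT, and Gcnt7 was lower in line 1 (-1.56 ± 0.489, adjusted p = 0.012).

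**Figure D3:**
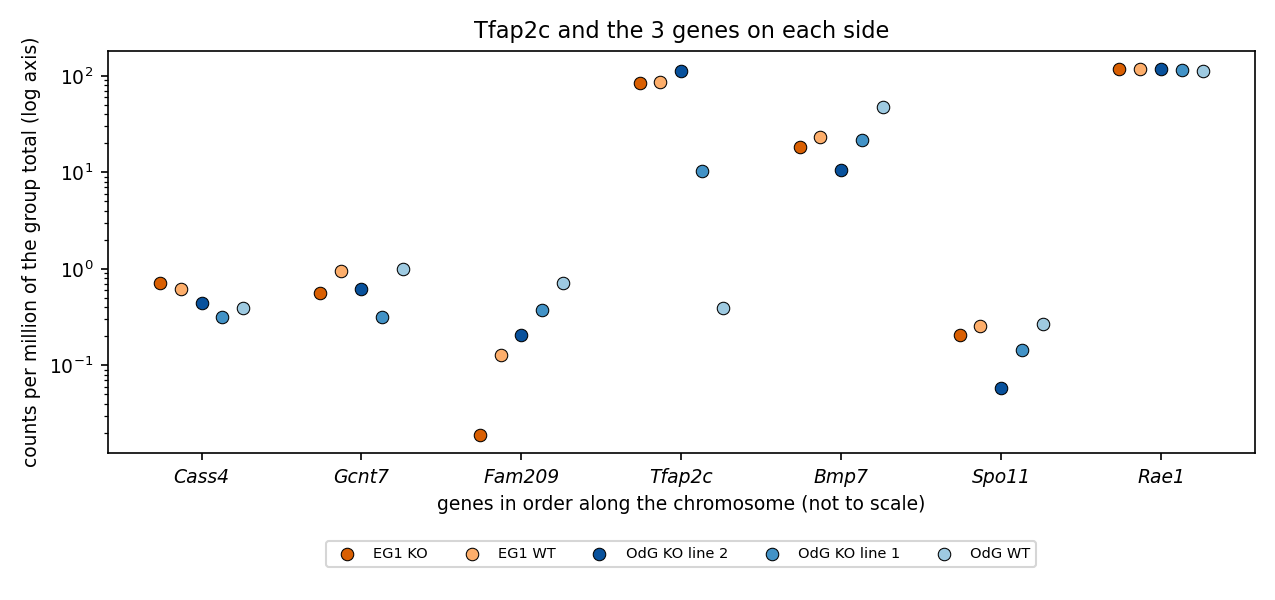
Counts scaled to the group total (CPM, log axis) for Tfap2c and the 3 annotated genes on each side, in their order along the chromosome and not to scale, for EG1 KO, EG1 WT, OdG KO line 2, OdG KO line 1 and OdG WT. Tfap2c drops in line 1 and further in OdG WT, whereas Bmp7 is highest in OdG WT and Rae1 lies at nearly the same height in all groups.

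With clone-style symbols (such as Rik names) passed over, the genes whose log2 CPM followed Tfap2c most closely over the 12 libraries were Pramel6 (Pearson r = 0.987), Slc9a3r2 (0.985), Flrt2 (0.984), Socs3 (0.984) and Cacnb3 (0.982). These 12 points are 5 groups of replicates, so the values describe the group pattern. The 10 surface ectoderm and neural crest markers, a setting in which AP-2 factors also act, summed to 56.3 to 59.9 CPM in EG1 KO, 53.1 to 57.0 in EG1 WT, 55.4 to 58.0 in line 2, 41.3 to 43.6 in line 1 and 25.4 to 26.1 in OdG WT, with Krt5 at 0 in the OdG groups. They gave 3 higher and 2 lower of 8 tested in line 2, 1 higher and 2 lower in line 1, and 1 higher and 4 lower in EG1 WT against OdG WT. All genes gave 30.0% higher and 29.8% lower in line 2, 26.8% and 26.1% in line 1, and 35.0% and 35.4% in EG1 WT. Most of the sum in the EG1 groups and both knockout lines was Foxd3. This gene, a factor of neural crest and of pluripotent cells, was at 35.5 ± 0.31 CPM in line 2 and 29.1 ± 1.49 in line 1 against 7.4 ± 0.459 in OdG WT. Msx1, by contrast, fell by 0.82 in line 2 and by 0.64 in line 1 on the log2 scale. The part of these markers in the Tfap2c difference was not tested.

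Tfap2a, the AP-2 alpha paralog best known from neural crest and face (chromosome 13, 40715302 to 40738376), had the reverse order to Tfap2c within OdG but not over all groups. It had 2.41, 2.35 and 2.04 CPM in EG1 KO and 1.70, 1.75 and 1.43 in EG1 WT, against 8.62 and 9.76 in line 2, 13.9 and 12.7 in line 1, and 17.1 and 16.2 in OdG WT. No group overlapped another. Tfap2a was 10.2-fold lower in EG1 WT than in OdG WT (log2 change -3.35 ± 0.143, adjusted p = 3.1e-19). It fell in line 2 (-0.84 ± 0.112, adjusted p = 4.6e-06) and in line 1 (-0.31 ± 0.105, adjusted p = 0.019), and line 2 was below line 1 (-0.53 ± 0.115, adjusted p = 0.0015).

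The line 1 call for Tfap2a was lost with DESeq2 (adjusted p = 0.16), without OdG WT replicate 1 (0.092) and without line 1 replicate 2 (0.13), over a range of 0.018 to 0.16 for the alternatives. In EG1 KO the change over EG1 WT was 0.48 ± 0.231 with an adjusted p of 0.22, although all 3 KO libraries lay above all 3 WT libraries. The mean OdG KO effect was -0.58 ± 0.0924, and it differed from the EG1 KO effect by -1.07 ± 0.219 (adjusted p = 0.00022). The other AP-2 genes were close to absent: Tfap2d was at 0 in every group and Tfap2b in every group but line 2, and Tfap2e averaged at most 0.614 CPM. The overlapping antisense gene Gm26688 held 0 to 4 counts per library.

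The summed level of 11 feeder fibroblast markers had the order of Gata2 and Tfap2a within OdG, and Pdgfrb was the marker with the highest level in each OdG group. The markers summed to 20.9 to 24.9 CPM in line 2, 33.8 to 34.9 in line 1 and 48.0 to 53.2 in OdG WT, and to 23.4 to 27.0 in EG1 KO and 24.6 to 26.1 in EG1 WT. Pdgfrb was at 8.73 ± 1.29 CPM in line 2 and 15.2 ± 0.0272 in line 1, against 30.3 ± 1.58 in OdG WT. The other markers did not all have this order. Col1a1 fell by 2.01 on the log2 scale in line 2 and had a log2 change of 0.13 in line 1 (adjusted p = 0.4), and Fbn1 rose by 0.69 in line 2 (adjusted p = 0.022). The list gave 1 higher and 2 lower of 6 tested in line 2, 0 higher and 2 lower in line 1, and 3 higher and 3 lower in EG1 WT against OdG WT. All genes gave 30.0% higher and 29.8% lower in line 2, 26.8% and 26.1% in line 1, and 35.0% and 35.4% in EG1 WT. S100a4 was at 0 in EG1 KO, line 2 and OdG WT, Lum and Postn in EG1 KO, EG1 WT and line 1, Col3a1 in EG1 KO and line 1, and Dcn in EG1 KO and EG1 WT. Their part in the Gata2 and Tfap2a differences was not tested.

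**Figure D4:**
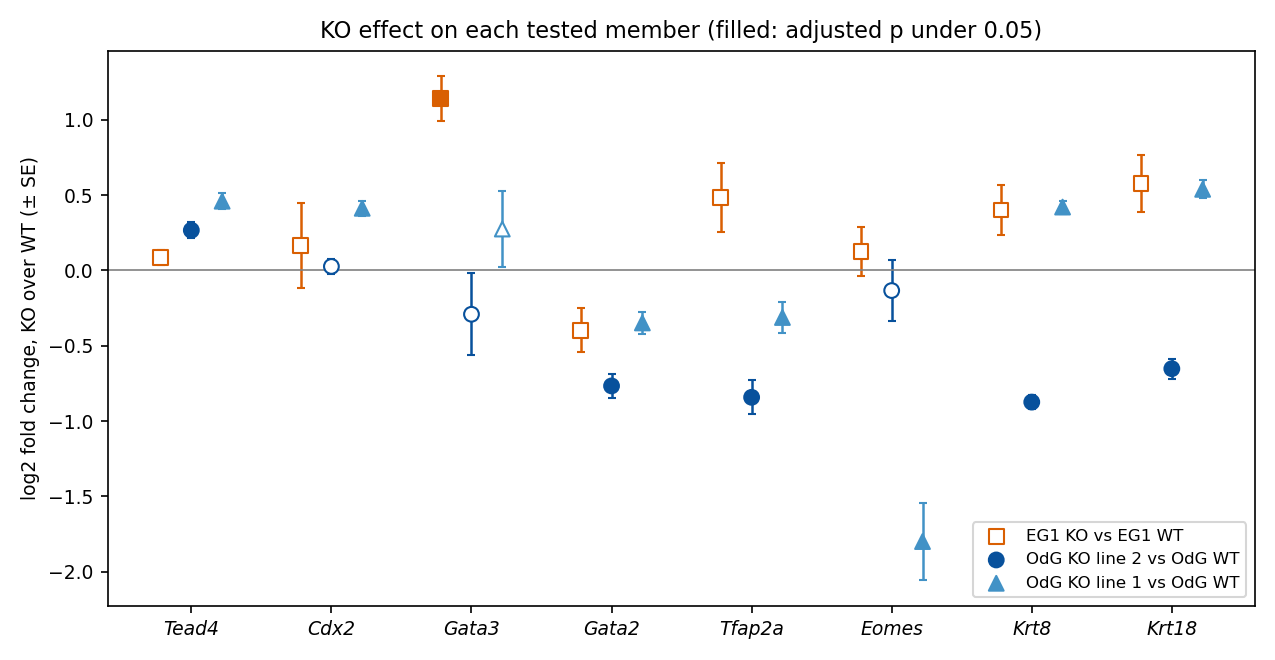
Log2 fold change (± SE) of each knockout over its wild type for the 8 members tested without the OdG WT description, for EG1 KO, OdG KO line 2 and OdG KO line 1. Filled symbols have an adjusted p under 0.05 and include Gata3 in EG1 KO (1.14), Tead4, Gata2, Tfap2a and both keratins in each OdG line, and Cdx2 and Eomes (-1.80) in line 1. The keratins lie below 0 in line 2 and above 0 in line 1.

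Eomes, the T-box factor of trophoblast stem cells and of the early streak (chromosome 9, 118478212 to 118486132), was low everywhere and stood out in line 1. It had 3.73, 4.70 and 4.85 CPM in EG1 KO and 3.63, 4.18 and 4.33 in EG1 WT, against 5.49 and 4.32 in line 2, 1.29 and 1.83 in line 1, and 4.33 and 6.49 in OdG WT. Line 1 lay below every other library, and the remaining 4 groups overlapped. Eomes was 3.48-fold lower in line 1 than in OdG WT (log2 change -1.80 ± 0.258, adjusted p = 1.4e-05), and line 2 was above line 1 by 1.67 ± 0.262 (adjusted p = 7.5e-05). Line 2 was not called against OdG WT (-0.13 ± 0.205, adjusted p = 0.59), nor EG1 KO against EG1 WT (0.13 ± 0.16, adjusted p = 0.71).

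EG1 WT was below OdG WT at Eomes by a log2 change of -0.41 ± 0.184 with an adjusted p of 0.046. That call was lost with DESeq2 (adjusted p = 0.15), and without OdG WT replicate 2 the log2 change was -0.09 (adjusted p = 0.74). It was also lost without any 1 of the EG1 WT libraries (adjusted p 0.053 to 0.14), and the alternatives as a whole ran from 0.0051 to 0.74.

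Elf5, an ETS factor that closes the loop with Cdx2 and Eomes in trophoblast stem cells and whose promoter is methylated in ESCs (chromosome 2, 103411688 to 103450989), was close to absent. It had 3, 3 and 1 counts in EG1 KO, 1, 3 and 5 in EG1 WT, 2 and 5 in line 2, 1 and 1 in line 1, and 2 and 1 in OdG WT. The groups overlapped, and no difference was detectable at this depth. The ratio of EG1 WT to OdG WT was 1.82 with an exact 95% counting interval of 0.454 to 10.5, and that of EG1 KO to EG1 WT was 0.811 (0.257 to 2.45).

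Krt8, the type II keratin of simple epithelia (chromosome 15, 101996698 to 102004482), was abundant in OdG and scarce in EG1. It had 4.48, 4.93 and 3.85 CPM in EG1 KO and 3.23, 3.33 and 3.46 in EG1 WT, against 49.4 and 46.6 in line 2, 117 and 119 in line 1, and 87.2 and 89.8 in OdG WT. No group overlapped another, and line 1 and line 2 lay on opposite sides of OdG WT. Krt8 was 26.4-fold lower in EG1 WT than in OdG WT (log2 change -4.72 ± 0.0807, adjusted p = 1.7e-29). It fell in line 2 (-0.87 ± 0.0486, adjusted p = 7.1e-11) and rose in line 1 (0.42 ± 0.0434, adjusted p = 3.3e-07).

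Krt18, the type I keratin that pairs with Krt8 in one filament (chromosome 15, 102028180 to 102032027), gave the same picture. It had 3.91, 3.50 and 3.85 CPM in EG1 KO and 3.12, 2.26 and 2.19 in EG1 WT, against 28.8 and 27.1 in line 2, 63.9 and 63.8 in line 1, and 44.9 and 43.3 in OdG WT. Krt8 has an annotated processed pseudogene, Krt8-ps, and how reads shared with it were counted is not stated. As with Krt8, no Krt18 group overlapped another. Krt18 was 17.5-fold lower in EG1 WT than in OdG WT (log2 change -4.13 ± 0.102, adjusted p = 2.7e-25), fell in line 2 (-0.65 ± 0.0663, adjusted p = 1.8e-07) and rose in line 1 (0.54 ± 0.0595, adjusted p = 7.5e-07). The gap between the knockout lines was -1.29 ± 0.0471 for Krt8 (adjusted p = 8.5e-13) and -1.19 ± 0.0634 for Krt18 (adjusted p = 1.1e-10).

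With the lines on opposite sides of OdG WT, the averaged OdG KO effect on the keratins was small: -0.23 ± 0.0396 for Krt8 (adjusted p = 9.2e-05) and -0.06 ± 0.0544 for Krt18 (adjusted p = 0.38). With the 4 OdG KO libraries as a single group, the Krt8 call was lost (adjusted p = 0.89). In EG1 KO, both keratins lay above EG1 WT in every library, by 0.40 ± 0.165 for Krt8 (adjusted p = 0.14) and 0.58 ± 0.19 for Krt18 (adjusted p = 0.058). Krt18 passed the threshold there without the filter on low counts (adjusted p = 0.038), without EG1 WT replicate 1 (0.033) and in a fit over all 12 libraries (0.016), over a range of 0.016 to 0.22 for the alternatives.

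The OdG and EG1 knockout effects on the keratins were called different, by -0.64 ± 0.141 for Krt8 (adjusted p = 0.00056) and -0.64 ± 0.167 for Krt18 (adjusted p = 0.0027). By line, the changes over OdG WT were -0.87 and -0.65 in line 2 and 0.42 and 0.54 in line 1, beside 0.40 and 0.58 in EG1 KO over EG1 WT, and the values of line 1 lie close to those of EG1 KO. In that test of the difference, 1 member was higher (Tead4, 0.27 ± 0.0726) and 5 were lower of 8 tested, where 39.8% of genes were called (20.2% higher, 19.5% lower). Eomes was the remaining lower one (-1.10 ± 0.256, adjusted p = 0.00092). With the OdG KO libraries as a single group, Gata3 and Tfap2a kept their calls, and Tead4, Eomes, Krt8 and Krt18 did not (adjusted p 0.088 to 0.59). The ratio of Krt8 to Krt18 counts was 1.00 to 1.41 in EG1 KO and 1.04 to 1.58 in EG1 WT, against 1.72 in line 2, 1.84 to 1.86 in line 1 and 1.94 to 2.07 in OdG WT. With clone-style symbols passed over, the genes nearest to Krt8 in log2 CPM over the 12 libraries were Emp2 (Pearson r = 0.997), Hoxa7 (0.997), Krt18 (0.996), Hoxa10 (0.996) and Ahcyl2 (0.995), again a description of 5 groups.

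Other simple-epithelium genes were lower in EG1 along with Krt8 and Krt18. Of 21 tested in EG1 WT against OdG WT, 1 was higher and 18 were lower (all genes: 35.0% higher, 35.4% lower), with a median log2 change of -1.01. Krt7, another type II simple keratin, was at 0.328 ± 0.114 CPM against 14.6 ± 1.8 (log2 change -5.45), and the type I keratin Krt19 at 3.91 ± 0.467 against 39.1 ± 1.53 (-3.32). The tight-junction claudins Cldn3 (-3.08) and Cldn4 (-1.95) were lower too, while Jup, which encodes plakoglobin of the desmosome, was the higher one (0.70).

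Within OdG these genes did not follow Krt8 and Krt18 across both lines. Krt19 fell by 2.09 on the log2 scale in line 2 (adjusted p = 3.8e-12) and by 2.09 in line 1 (adjusted p = 7.6e-12), where Krt8 and Krt18 rose. Cldn3 fell by 1.46 in line 2 and by 0.53 in line 1, Cldn4 by 1.03 and 0.55, Krt7 by 2.05 and 0.54, and Krt80 by 2.88 and 1.90. Of 21 tested, 4 were higher and 10 lower in line 2 (all genes: 30.0% higher, 29.8% lower). In line 1, 3 were higher and 10 lower (all genes: 26.8% higher, 26.1% lower). Jup was among the higher ones in both, with log2 changes of 0.27 in line 2 and 0.46 in line 1. Line 2 against line 1 gave 4 higher, 9 lower and 8 not called (all genes: 18.6% higher, 19.2% lower). Krt7 (-1.51) and Cldn3 (-0.93) were lower there, as Krt8 and Krt18 were, and Krt19 was not called (-0.01, adjusted p = 0.97). In EG1 KO, 1 of 17 was higher (Jup) and 1 lower (Krt19, log2 change -0.66 ± 0.193, adjusted p = 0.03). Among all genes, 3.60% were higher there and 4.06% lower.

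The 12 primitive endoderm markers, a lineage that also builds Krt8 and Krt18 filaments, had their lowest summed level in line 2, where most of the sum was Sparc, Lama1 and Col4a1. They summed to 928 to 966 CPM in EG1 KO, 878 to 882 in EG1 WT, 528 to 536 in line 2, 816 to 826 in line 1 and 948 to 981 in OdG WT, with none at 0 in any group. In line 2, 0 were higher and 5 lower of 10 tested (all genes: 30.0% higher, 29.8% lower). In line 1, 0 were higher and 4 lower (all genes: 26.8% higher, 26.1% lower). Line 2 against line 1 gave 2 higher (Dab2, log2 change 1.15, and Gata4, 0.78), 3 lower and 5 not called. Among all genes, 18.6% were higher there and 19.2% lower. Between EG1 WT and OdG WT, 1 of these markers was higher and 4 were lower (all genes: 35.0% higher, 35.4% lower). Their part in the keratin differences was not tested.

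Among 19 other trophoblast regulators, the directions were mixed. EG1 WT against OdG WT gave 5 higher and 8 lower of 19 tested (all genes: 35.0% higher, 35.4% lower), with a median log2 change of -0.23. Dlx3, a homeobox gene needed for the placental labyrinth, was at 2.13 ± 0.128 CPM against 20.0 ± 0.341 (log2 change -3.23), Msx2 at 2.17 ± 0.496 against 14.1 ± 0.39 (-2.71), Arid3a, which acts in trophectoderm, at 13.5 ± 2.16 against 40.7 ± 0.218 (-1.59) and the ETS factor Elf3 at 225 ± 7.64 against 398 ± 3.14 (-0.82). The higher ones included Sox21, at 6.15 ± 0.693 CPM in EG1 WT against 1.25 ± 0.0213 in OdG WT (log2 change 2.29). Sox15 was higher too, at 9.69 ± 0.819 against 2.65 ± 0.00105 (1.86). In line 2, 9 were higher and 7 lower (all genes: 30.0% higher, 29.8% lower). In line 1, 7 were higher and 7 lower (all genes: 26.8% higher, 26.1% lower).

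Some of these regulators moved alike in both knockout lines, unlike the keratins. Dlx3 fell to 3.92 ± 0.339 CPM in line 2 and 3.93 ± 0.383 in line 1, against 20.0 ± 0.341 in OdG WT. Klf5, a zinc-finger factor of both ESCs and trophectoderm, rose to 304 ± 6.86 CPM in line 2 and 237 ± 7.68 in line 1, against 160 ± 4.94 in OdG WT. In EG1 KO, 1 was higher and 2 were lower of 16 tested, and the lower ones were Dlx3 and Elf3. Dlx3 was at 1.06 ± 0.28 CPM in EG1 KO against 2.13 ± 0.128 in EG1 WT (log2 change -1.005, adjusted p = 0.015). The change of Elf3 was smaller (log2 change -0.16, adjusted p = 0.0065). Among all genes, 3.60% were higher there and 4.06% lower. Of the differentiated placental genes that could be tested, 4 of 5 were lower in EG1 WT than in OdG WT (all genes: 35.4% lower). Among them, the imprinted, paternally expressed gene Peg10 was at 46.5 ± 0.971 CPM in EG1 WT against 789 ± 0.981 in OdG WT (log2 change -4.08).

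**Figure D5:**
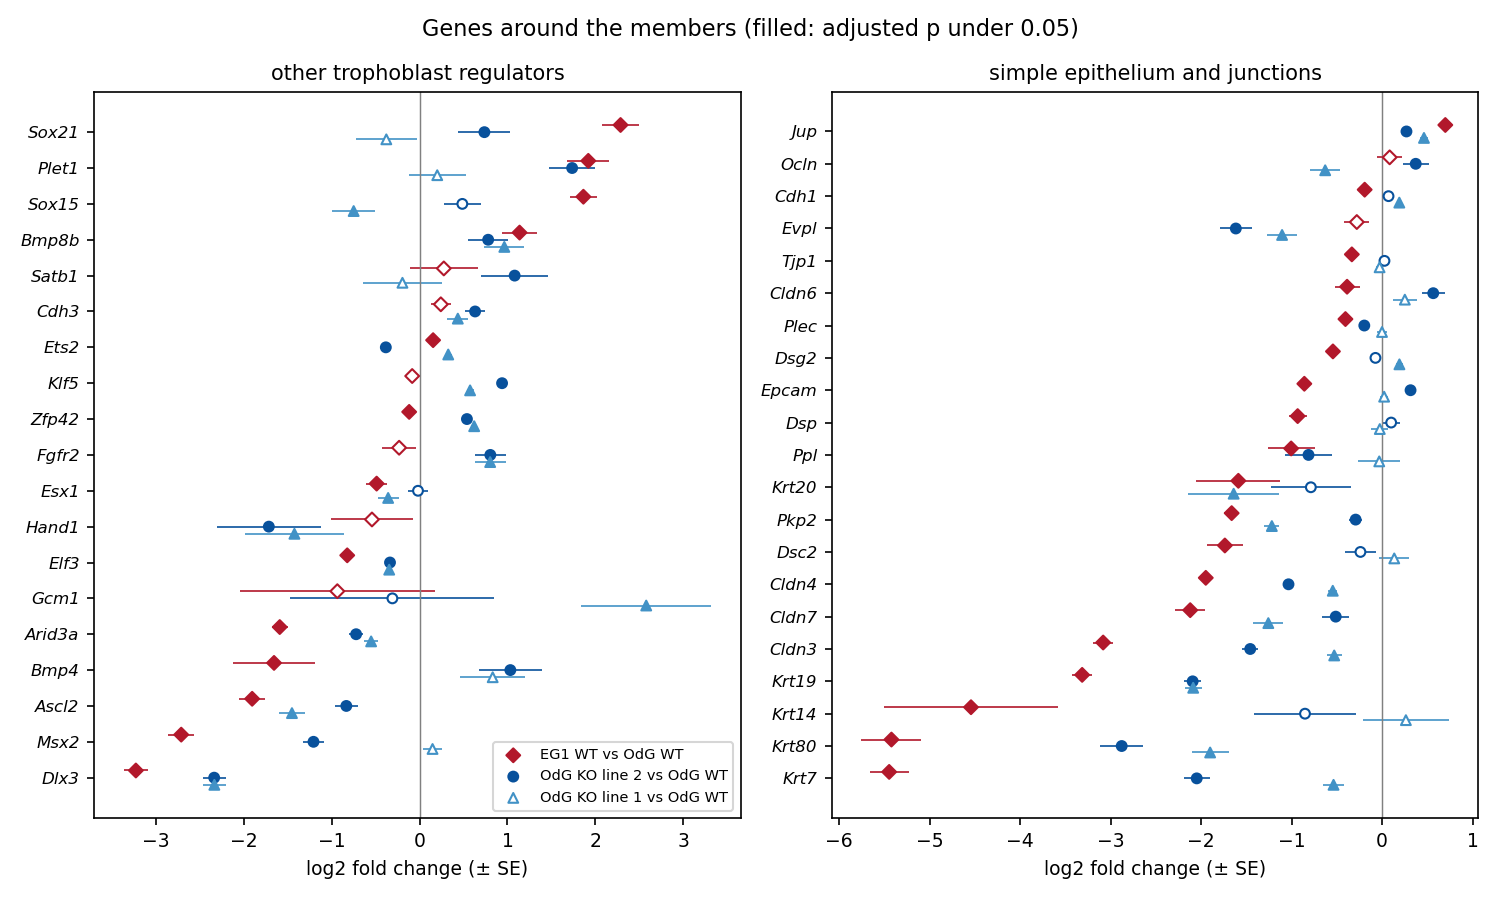
Log2 fold change (± SE) of 19 other trophoblast regulators (left) and 21 simple-epithelium and junction genes (right) in EG1 WT against OdG WT, OdG KO line 2 against OdG WT and OdG KO line 1 against OdG WT, with filled symbols for an adjusted p under 0.05. Krt7 (-5.45), Krt19 (-3.32) and Dlx3 (-3.23) lie far below 0 in EG1 WT, and Krt19 and Dlx3 are also below 0 in both knockout lines.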

How the data were processed

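The authors deposited raw whole-number read counts for each gene symbol in 2 tables, 1 for OdG and 1 for EG1. The mm10 build, featureCounts 1.6.4, HISAT2 2.1.0, CASAVA and DESeq2 are named per the submitters' processing notes, and the NEBNext Ultra RNA kit and Trizol per the labels' protocols. The kit does not mark strand, and the annotation used for counting is not given in the sources used here. Groups came from the sample titles. Counts were filtered with filterByExpr, given TMM scaling and tested with edgeR 4.0.16 in R 4.3.3 (quasi-likelihood, two-sided, Benjamini-Hochberg over all genes tested, threshold 0.05), in 1 fit for OdG (14413 genes), 1 for EG1 (14016) and 1 over all 12 libraries (14977) for comparisons between parental lines. Each standard error is the log2 change divided by the square root of F. Printed CPM use TMM over all 12 libraries, and exon lengths and gene coordinates are from GENCODE M21. Each library was counted as its own sample. Chi-square per degree of freedom between replicates was 1.86 to 3.7, a spread beyond counting error that cannot tell separate cultures from technical replicates. Named genes were all 10 members, up to 4 genes per list by smallest adjusted p with 5 CPM or more in one group, the 3 genes on each side of Tfap2c, and the 5 genes most like Tfap2c and Krt8 (log2 of CPM plus 0.5). Clone-style symbols, such as Gm numbers and Rik names, were passed over in the choice of the most alike genes. Gata6, Gata4, Tead2, Tead3, Mixl1, Dab2, Sox21, Sox15, the other AP-2 genes and overlapping genes were named in addition, as were values of named genes in further comparisons. The members and the 13 gene lists were chosen with earlier results of these data known. A gene of the trophoblast regulator list was taken out and is not reported here. The fits were tested on simulated data. Alternatives were DESeq2 1.42.0, RLE scaling, no filter, a replicate block, 1 fit over all libraries, both OdG KO lines as a single group, and each library left out.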

Additional observations from a re-analysis of the deposited data

Results flagged for a closer look

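The knockout effect differed between the parental lines, by a test of the difference itself, for 6 members, where 39.8% of all genes were called. The OdG KO effect minus the EG1 KO effect, on the log2 scale, was 0.27 for Tead4, -1.16 for Gata3, -1.07 for Tfap2a, -1.10 for Eomes, -0.64 for Krt8 and -0.64 for Krt18. With the OdG KO libraries as a single group, Tead4, Eomes, Krt8 and Krt18 lost this call (adjusted p 0.088 to 0.59). By line, Krt8 and Krt18 had log2 changes of -0.87 and -0.65 in line 2 and of 0.42 and 0.54 in line 1, beside 0.40 and 0.58 in EG1 KO, and Eomes of -0.13 in line 2 and -1.80 in line 1, beside 0.13 in EG1 KO.

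The 2 OdG knockout lines also differed from each other, with line 2 over line 1 at a log2 change of 3.43 for Tfap2c and 1.67 for Eomes, and of -0.19 for Tead4, -0.39 for Cdx2, -0.42 for Gata2, -0.53 for Tfap2a, -1.29 for Krt8 and -1.19 for Krt18. The Tead4 gap was lost with DESeq2 (adjusted p = 0.081), without line 1 replicate 1 (0.069) and without line 2 replicate 1 (0.09).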

How the results depend on the processing

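RLE scaling, and DESeq2 apart from the counts below, kept each count of genes and of members called within 1.5 times. Treating the OdG KO libraries as a single group gave 4609 genes and 2 members called for OdG KO against OdG WT, and 3068 genes and 2 members for the difference of effects. DESeq2 called 3217 genes between line 2 and line 1 and 669 in EG1 KO. In EG1 KO, 2 members were called with no filter and 3 in a fit over all 12 libraries. With 1 library left out, genes called ran from 7791 to 8028 (OdG KO, 6 members each time), 6068 to 7284 (line 1, 6 to 7 members), 7273 to 8192 (line 2, 5 members), 3680 to 3865 (line 2 against line 1, 7 to 8 members), 638 to 1213 (EG1 KO, 1 to 2 members, with 638, 672 and 658 genes without EG1 WT replicate 1, 2 or 3), 9564 to 10157 (EG1 WT against OdG WT, 7 to 8 members) and 5122 to 5914 (difference of effects, 6 members).

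Signs turned for uncalled changes near 0. With 1 library left out, Gata3 in OdG KO ran from -0.14 to 0.15, Cdx2 in line 2 from -0.028 to 0.085, Eomes in line 2 from -0.40 to 0.19, Tfap2c in EG1 KO from -0.041 to 0.0023, and the Cdx2 difference of effects from -0.11 to 0.17. Gata3 in OdG KO was 0.00059 with DESeq2 and 0.022 with the KO lines as a single group, where Krt18 was 0.062. The causes were not tested.

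Replicate numbers did not pair the libraries: deviations from group means of same-numbered libraries correlated at -0.0412 to 0.0223. With the number as a block, 8542 genes were called in OdG KO and 906 in EG1 KO, and members called stayed at 6 and 1. Elf5 held 5 or fewer counts in every library, which limits what can be said of it.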

Other observations

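Tfap2c also acts in primordial germ cells, and 10 genes of that lineage were compared. In EG1 WT against OdG WT, 5 were higher and 5 lower (all genes: 35.0% higher, 35.4% lower). Prdm14, a regulator shared by germ cells and ESCs, was at 173 ± 3.8 CPM against 67.0 ± 1.69 (log2 change 1.36), and Dppa3, an oocyte and germ cell factor, at 0.949 ± 0.0783 against 20.3 ± 1.81 (-4.41). In line 2, 7 rose and 1 fell (all genes: 30.0% higher, 29.8% lower). In line 1, 3 rose and 4 fell (all genes: 26.8% higher, 26.1% lower). Between the lines, 4 were higher and 2 lower in line 2 than in line 1 (all genes: 18.6% higher, 19.2% lower). Prdm14 was at 104 ± 0.519 CPM in line 2 and 131 ± 4.75 in line 1, against 67.0 ± 1.69 in OdG WT. Its order between the lines was thus not that of Tfap2c. Dazl was higher in line 2 than in line 1, as Tfap2c was (log2 change 1.997, adjusted p = 6.6e-10). It was at 87.0 ± 0.0936 CPM in line 2 and 21.9 ± 0.265 in line 1, against 29.5 ± 9.5 in OdG WT. Unlike Tfap2c, Dazl was lower in line 1 than in OdG WT (log2 change -0.42, adjusted p = 0.016).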
